A study of Mus musculus with 32 samples.

Results

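Cidec, Plin2, Cd36, Pparg and Apoa4, 5 genes that act in lipid droplets and in the storage, uptake, export or control of fat in hepatocytes, were followed in regenerating mouse liver. They were found by name, current or older, in the array's annotation. Every probe set annotated to 1 of these genes alone was taken, which gave 6 of the 12422 probe sets that are not array controls, and 5 of the 8251 genes with a probe set of their own. Cd36 had 2 probe sets and the others 1 each. Lipid itself was not measured.

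Lipid droplets are stores of triglyceride and sterol ester that bud from the endoplasmic reticulum and carry a coat of proteins. PLIN2 coats the droplets of hepatocytes and is degraded when it is not bound to lipid, and CIDEC sits where droplets touch and passes lipid from the smaller to the larger. PPARG is a nuclear receptor that binds fatty acid derivatives and drives fat storage genes, CD36 takes up long-chain fatty acids at the cell surface, and APOA4 is a secreted apolipoprotein of triglyceride-rich particles. When part of the liver is cut away (partial hepatectomy), the lobes left behind fill with lipid droplets for a short time before and during the first round of cell division, which is known as transient steatosis.

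The 32 livers came from male C57BL/6 mice aged 3 months, all with both Rps6 alleles floxed. Rps6 encodes a protein of the small ribosomal subunit. Cre plus mice carried the mx-cre transgene, in which an interferon-responsive promoter drives Cre recombinase, and Cre minus mice lacked it. Deletion was started with injected polyinosinic-polycytidylic acid, a double-stranded RNA that induces interferon, so Cre acts wherever interferon is sensed and not in hepatocytes alone. The sources used here do not give whether Cre minus mice were injected. Sampling was at 0, 20, 30 or 40 h after surgery. Cre plus had 3 livers at 30 h and 5 at 40 h, and the 6 other groups of genotype and time had 4. No sham operation is labelled. The labels describe separate liver samples, lettered within a group, without stating that no mouse gave more than 1, so the p-values here rest on the spread between samples, which may be technical. The labels place 15 arrays in batch PHX2 and 17 in batch PHX3, and each of the 8 groups was split over the batches.

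Values are log2 expression from Affymetrix arrays, normalised by the authors with RMA, and the array medians lay between 5.88 and 5.99. Rps6 mRNA lay between 10.99 and 11.82 in the 16 Cre minus livers and between 6.24 and 7.69 in the 16 Cre plus livers, and the hepatocyte gene Alb lay between 13.35 and 13.83 in all 32. The Rps6 probe set is also annotated to a pseudogene of Rps6. Mean correlation with the other arrays of the group was under 0.95 for 3 arrays, Cre plus 40 h D (0.943), Cre minus 30 h C (0.945) and Cre plus 30 h A (0.949).

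Promoter sequences are shown for the 3 members that were measured well enough to test, because the results turn on them. RefSeq gives 8 start sites for the 5 genes in GRCm38.p6. The 250 bases before each were searched on both strands for the nuclear receptor half-site AGGTCA, for the DR1 repeat AGGNCANAGGNCA, the kind of element that PPAR and RXR bind, and for CAAAGTNCA, an HNF4-type site that can overlap a DR1 repeat. Capitals mark a match. The Cidec bases before its first start site (chr6:113435761-113436010, minus strand) lie inside the span of the predicted gene Gm52871, and the gene Cidec itself spans chr6:113424634-113435760. The Plin2 bases (chr4:86670218-86670309, minus strand) are the 92 of the 250 that lie outside the annotated gene, which spans chr4:86626910-86670217. The Apoa4 bases (chr9:46240594-46240843, plus strand) end at the annotated start of the gene, chr9:46240844-46243458.
Cidec: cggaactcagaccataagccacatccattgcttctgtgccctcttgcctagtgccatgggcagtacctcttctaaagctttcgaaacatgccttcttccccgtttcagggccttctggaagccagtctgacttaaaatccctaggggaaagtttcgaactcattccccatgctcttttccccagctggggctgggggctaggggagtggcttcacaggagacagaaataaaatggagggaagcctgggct
Plin2: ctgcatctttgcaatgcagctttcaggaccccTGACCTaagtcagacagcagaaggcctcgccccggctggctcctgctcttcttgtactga
Apoa4: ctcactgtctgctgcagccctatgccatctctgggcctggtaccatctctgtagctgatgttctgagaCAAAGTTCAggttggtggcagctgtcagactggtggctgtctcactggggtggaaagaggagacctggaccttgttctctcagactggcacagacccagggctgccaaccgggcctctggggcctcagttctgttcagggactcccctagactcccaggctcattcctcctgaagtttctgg
Plin2 had the half-site on the opposite strand, written TGACCT here, 218 to 213 bases before its start site. Cd36 also had it on the opposite strand, 228 to 223 bases before its start site. Pparg had it 28 to 23 bases before start site 1 and 9 to 4 bases before start site 2. Apoa4 had CAAAGTTCA 182 to 174 bases before its start. Neither of the 2 Cidec windows held any of the motifs searched. The half-site was present in 14% of 32851 promoters of the same length, the HNF4-type site in 1.19% and the DR1 repeat in 0.338%, and no window of the 5 genes held the DR1 repeat.

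The members differed widely in how brightly they were measured. The Plin2 probe set lay between the 98.2nd and the 99.9th percentile of its array and the Apoa4 probe set between the 94.4th and the 99.9th, in all 32 livers. The Cidec probe set ranged from the 20.6th to the 96.5th percentile and was above the 30th on 19 arrays. The Pparg probe set was above the 30th percentile on 2 arrays, and the 2 Cd36 probe sets on none. The test took in probe sets that passed this percentile on 3 or more arrays, so Cidec, Plin2 and Apoa4 were tested and Pparg and Cd36 are given as values. Cidec passed through livers taken after surgery, with Cre minus 0 h C the only 0 h liver above the percentile. Such a choice favours a difference from 0 h, so counts over the 3 tested genes are read as counts and not as support.

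At 0 h Cidec was dim in every liver. The Cre minus livers A to D read 4.40, 4.35, 4.80 and 4.50, and the Cre plus livers 4.12, 4.38, 4.47 and 4.29. Of these 8 livers 1 was above its array's 30th percentile, so a fold against 0 h starts from a level near the dim end of the array. Plin2 was already bright, at 11.36, 11.06, 11.21 and 10.88 in Cre minus and 11.01, 11.21, 10.90 and 11.54 in Cre plus. Apoa4 read 9.53, 11.01, 10.40 and 11.13 in Cre minus and 9.38, 11.39, 10.73 and 11.03 in Cre plus, with liver A lowest in both genotypes.

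At 20 h all 3 genes were higher in both genotypes. Cidec in Cre minus livers A to D read 5.86, 7.49, 9.59 and 9.76, and in Cre plus livers 8.99, 9.35, 8.52 and 5.40. Every 20 h liver lay above every 0 h liver of its genotype, but within each genotype 1 liver stayed under 6 while the highest was above 9. The rise averaged 3.66 on the log2 scale in Cre minus (SE 1.03, limma adjusted p = 0.0291), 12.6-fold with a 95% interval from 2.91 to 54.9, and 3.75 in Cre plus (SE 1.03, adjusted p = 0.0224), 13.5-fold with an interval from 3.10 to 58.5. In bulk liver, fewer cells of a type and less RNA per cell cannot be told apart, and this holds for every level here. The 3 tested of the 5 members were all called in Cre minus, where 7.37% of the 9249 probe sets tested were called, and in Cre plus, where 9.07% were. The comparisons of the later times within a genotype share its 0 h livers.

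The rise in Plin2 at 20 h was smaller than that in Cidec and spread over the livers in the same way. Cre minus livers A to D read 12.17, 12.41, 13.24 and 13.43, and Cre plus livers 13.50, 13.45, 12.98 and 11.74. None overlapped the 0 h livers of its genotype. Plin2 rose by 1.68 in Cre minus (SE 0.40, adjusted p = 0.0121, 3.21-fold) and by 1.75 in Cre plus (SE 0.40, adjusted p = 0.00750, 3.36-fold). Within batches the Cre minus rise was 2.36 in PHX2 and 1.0 in PHX3 for Plin2, and 5.25 and 2.08 for Cidec.

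Some of these calls rest on single livers. The Cidec call in Cre minus was lost without Cre minus 0 h A, B or D or Cre minus 20 h B, C or D (adjusted p up to 0.104), and that in Cre plus without Cre plus 0 h C or D or Cre plus 20 h A or B (up to 0.109). The Plin2 calls were lost without Cre minus 20 h D (adjusted p = 0.0528) and without Cre plus 20 h A (adjusted p = 0.0509). The differences kept their direction in all of these, and none of the 4 was called in the PHX2 arrays alone, nor the Cre minus pair in the PHX3 arrays alone.

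**Figure D1:**
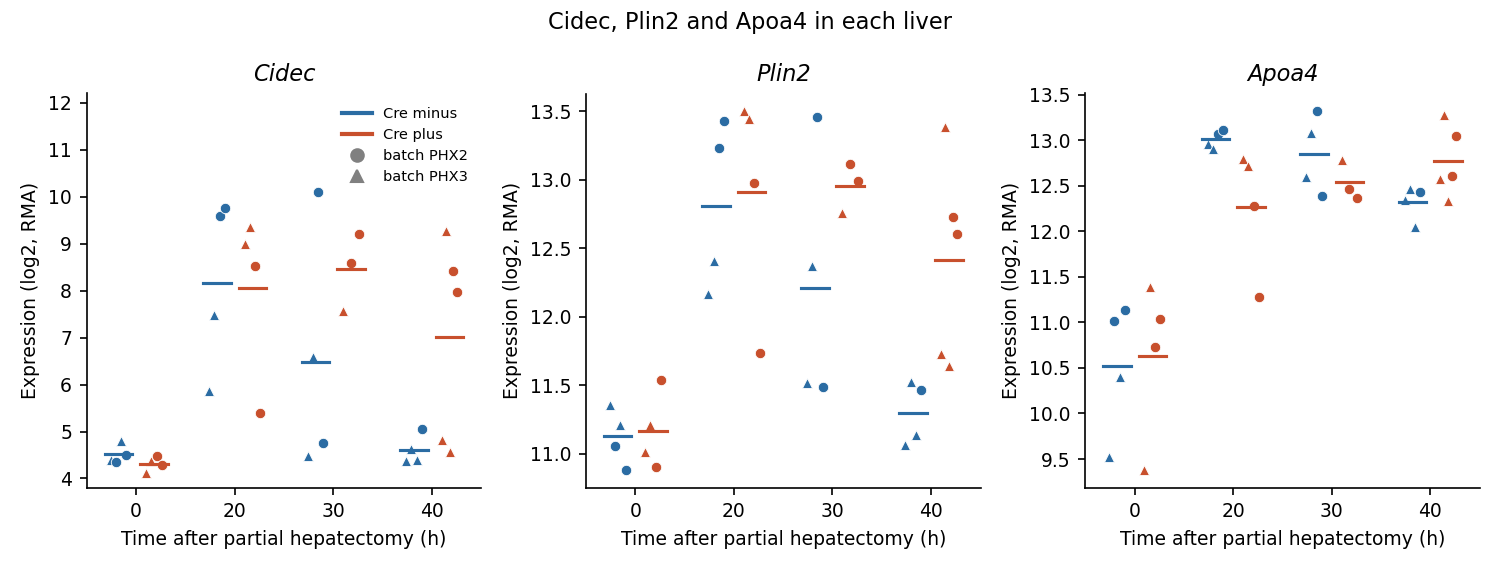
Log2 expression of Cidec, Plin2 and Apoa4 (y axes, each with its own range) in the 32 livers against hours after partial hepatectomy; blue is Cre minus, red Cre plus, circles batch PHX2, triangles batch PHX3, bars group means. Cidec and Plin2 spread widely at 20 h and split within Cre minus at 30 h and Cre plus at 40 h, and Apoa4 stays above its 0 h mean in both genotypes at every later time.

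At 30 h the Cre minus livers parted. Cidec read 4.47, 6.59, 10.10 and 4.76 in Cre minus livers A to D, so that liver C had the highest Cidec of all 32 while livers A and D were at the level of 0 h. The 3 Cre plus livers were all high, at 7.57, 8.59 and 9.20. Cidec had risen by 4.0 over 0 h in Cre plus (SE 1.12, adjusted p = 0.0240), and its difference of 1.97 in Cre minus did not pass (adjusted p = 0.362). Plin2 read 11.52, 12.37, 13.46 and 11.49 in Cre minus and 12.76, 13.12 and 12.99 in Cre plus, with a rise of 1.77 in Cre plus (SE 0.43, adjusted p = 0.0115) and a difference of 1.08 in Cre minus that did not pass (adjusted p = 0.150). Without Cre minus 30 h C the Cre minus differences were 0.85 for Cidec (adjusted p = 0.893) and 0.67 for Plin2 (adjusted p = 0.563). All 3 tested members were called in Cre plus, against 9.89% of all probe sets, and 1, Apoa4, in Cre minus, against 3.14%. The Cidec call in Cre plus was lost without Cre plus 0 h C or D or any 1 of the 3 livers at 30 h (adjusted p up to 0.0779), in either batch alone, and with the replicate letter as a block (difference 3.69, adjusted p = 0.0579), where over the 14 settings the adjusted p ran from 1.02e-05 to 0.229. Passing in 1 genotype and not in the other does not show that the genotypes differ.

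By 40 h Cidec read 4.38, 4.62, 4.39 and 5.06 in Cre minus livers A to D, of which A, B and C lay within the range of the 0 h livers and D above it. In Cre plus it was not of 1 kind: livers B, D and E read 9.28, 8.42 and 7.97, and livers A and C 4.82 and 4.57. Plin2 followed, with 11.06, 11.52, 11.13 and 11.46 in Cre minus and 11.73, 13.39, 11.64, 12.73 and 12.61 in Cre plus livers A to E. All 5 Cre plus livers lay above the Cre minus livers for Plin2, and the groups overlapped for Cidec. Against 0 h, Plin2 remained higher in Cre plus by 1.27 (SE 0.38, adjusted p = 0.0346, 2.41-fold), and the Cidec difference of 2.78 did not pass (SE 0.98, adjusted p = 0.0744), although no 40 h Cre plus liver overlapped the 0 h livers. In Cre minus the differences from 0 h were 0.31 for Cidec (adjusted p = 0.922) and 0.21 for Plin2 (adjusted p = 0.856). The tested members called against 0 h were Plin2 and Apoa4 in Cre plus, 2 of 3 against 9.66% of all probe sets, and Apoa4 in Cre minus, 1 of 3 against 4.77%.

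The Plin2 call at 40 h in Cre plus was lost in 7 of the 32 fits that each left out 1 liver: any of the 4 Cre plus livers at 0 h, or Cre plus 40 h B, D or E, with adjusted p = 0.115 without B as the highest. The Cidec difference was called in 4 of these fits, without Cre plus 20 h D, Cre minus 30 h C, Cre plus 40 h A or Cre plus 40 h C (adjusted p = 0.0352 without the last). The Plin2 call held in 9 of the 14 other settings (adjusted p from 0.0288 to 0.262). It was lost in PHX2 alone, in PHX3 alone, with only the groups compared (adjusted p = 0.0770), with array weights (difference 0.82, adjusted p = 0.0671) and with the replicate letter as a block (difference 1.28, adjusted p = 0.0618).

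The step from 20 h to 40 h was taken as the measure of a fall after the peak. In Cre minus Plin2 fell by 1.48 on the log2 scale (SE 0.40, adjusted p = 0.0317), 2.78-fold, and the 2 groups did not overlap. Cidec was lower at 40 h than at 20 h in Cre minus, with a difference of -3.35 (SE 1.04, adjusted p = 0.0535) that just missed the threshold although the groups did not overlap. The members called were 1 of 3, Plin2, against 5.80% of all probe sets. In Cre plus the differences were -0.97 for Cidec (adjusted p = 0.790) and -0.48 for Plin2 (adjusted p = 0.735), and limma called 0 of the 3 members and 0% of all probe sets, with 698 probe sets at an unadjusted p under 0.05. These Cre plus differences had opposite signs in the batches, 1.23 in PHX2 and -2.94 in PHX3 for Cidec and 0.31 and -1.22 for Plin2. With array weights both were called, at -2.78 (adjusted p = 0.0464) and -1.15 (adjusted p = 0.0453), where the adjusted p of each ran up to 0.999 over the 14 settings. Leaving out 1 liver moved the Cidec difference in Cre plus between -2.02 (without Cre plus 20 h D) and -0.36 (without Cre plus 20 h B), and it was not called in any of these fits. Plin2's fall in Cre minus was lost without Cre minus 20 h B, C or D or Cre minus 40 h A, B or C (adjusted p up to 0.0908), and in either batch alone. The Cidec difference was called in 7 of the 32 fits that left out 1 liver, without Cre minus 20 h A, Cre plus 20 h D, Cre minus 30 h C or Cre plus 40 h A, B, C or E (lowest adjusted p = 0.0220, without Cre minus 30 h C), and in 6 of the 14 other settings.

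Apoa4 kept another course: it rose by 20 h and stayed up. In Cre minus livers A to D it read 12.96, 12.91, 13.07 and 13.11 at 20 h. The 30 h livers read 12.60, 13.08, 13.32 and 12.39, and the 40 h livers 12.34, 12.47, 12.04 and 12.43. The rises over 0 h were 2.49, 2.33 and 1.83 (SE 0.36 each, adjusted p = 1.71e-04, 5.27e-04 and 0.00219), and no later liver overlapped a 0 h liver. In Cre plus livers it read 12.79, 12.72, 12.28 and 11.28 at 20 h. The 30 h livers read 12.79, 12.46 and 12.36, and the 40 h livers A to E 12.58, 13.28, 12.33, 12.61 and 13.05. The rises were 1.63, 1.89 and 2.15 (adjusted p = 0.00584, 0.00383 and 3.43e-04), and only liver D at 20 h overlapped the 0 h livers, lying under Cre plus 0 h B. All 6 of these calls held in each of the 32 fits that left out 1 liver, and 5 of them, all but Cre minus at 20 h, were lost in PHX2 alone. Cre plus at 20 h was also lost with only the groups compared (adjusted p = 0.0600) and Cre plus at 30 h in PHX3 alone (adjusted p = 0.0546). From 20 h to 40 h Apoa4 differed by -0.66 in Cre minus (adjusted p = 0.249) and by 0.51 in Cre plus (adjusted p = 0.701), neither of which passed.

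**Figure D2:**
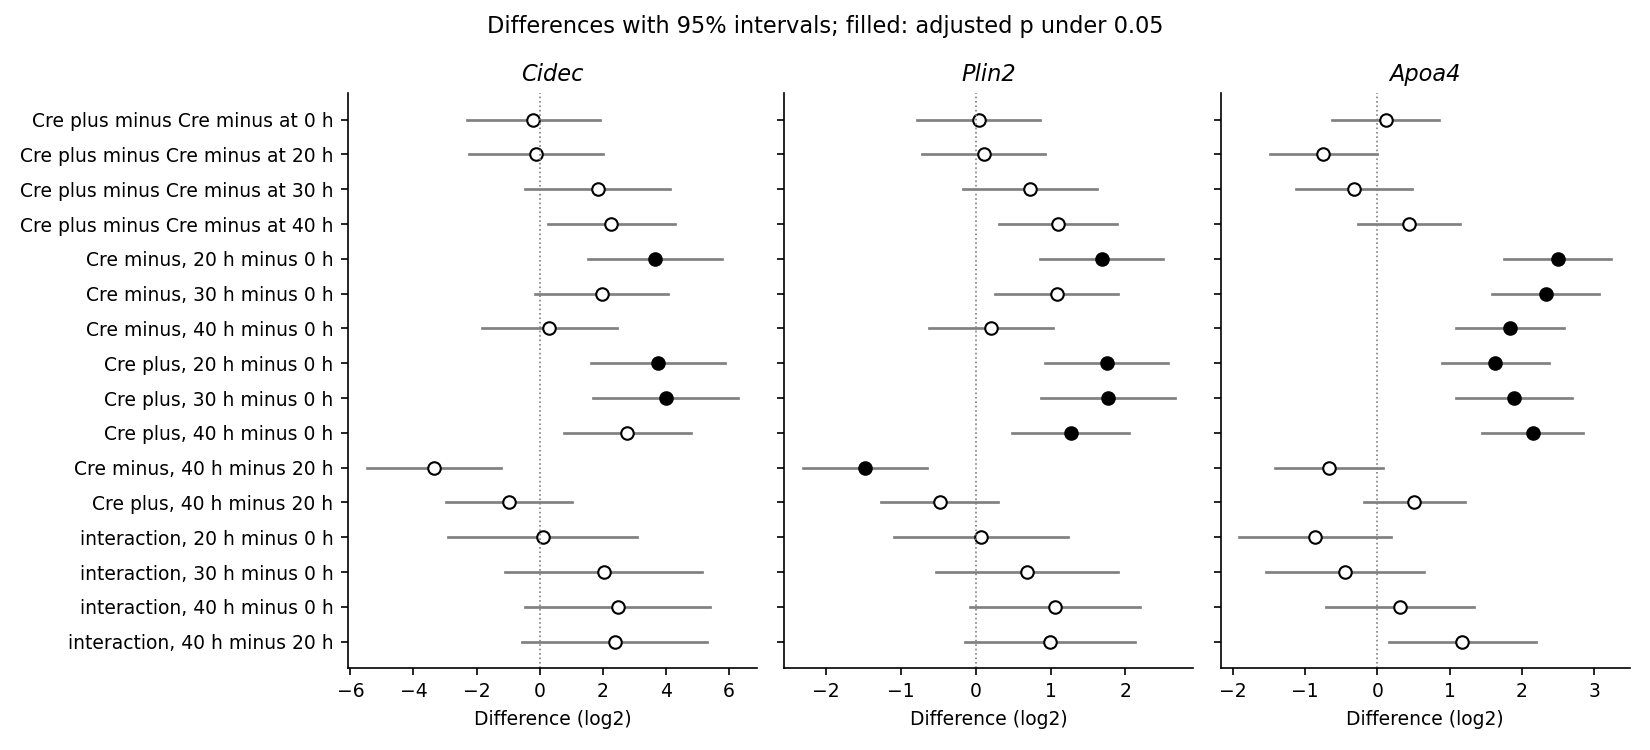
Log2 differences (x axes, with a separate range for each gene) of Cidec, Plin2 and Apoa4 in the 16 comparisons, with 95% intervals; filled points had an adjusted p under 0.05. All filled points are steps in time within a genotype, 6 of them for Apoa4, 5 for Plin2 and 3 for Cidec, and no genotype difference or interaction is filled.

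Ordered by group mean, Cidec was highest in Cre plus at 30 h (8.45 ± 0.82, SD, n = 3), then in Cre minus and Cre plus at 20 h (8.17 ± 1.86 and 8.07 ± 1.81, n = 4 each), Cre plus at 40 h (7.01 ± 2.17, n = 5) and Cre minus at 30 h (6.48 ± 2.59, n = 4). Cre minus at 40 h (4.61 ± 0.32), Cre minus at 0 h (4.51 ± 0.20) and Cre plus at 0 h (4.31 ± 0.15) came last. Plin2 had the same groups above and below, from 12.96 ± 0.18 in Cre plus at 30 h to 12.21 ± 0.93 in Cre minus at 30 h, and then 11.30 ± 0.23 in Cre minus at 40 h down to 11.13 ± 0.20 in Cre minus at 0 h. Apoa4 ran from 13.01 ± 0.10 in Cre minus at 20 h to 12.27 ± 0.70 in Cre plus at 20 h, and then 10.63 ± 0.88 and 10.52 ± 0.73 at 0 h. For all 3 genes, neighbours in the order of means overlapped in their livers.

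Cre plus and Cre minus livers were then compared at each time. The comparison is between livers with and without the mx-cre transgene. Loss of Rps6 cannot be told apart in it from other effects of Cre. If Cre minus mice were not injected, the same holds for the injection. At 40 h Plin2 was higher in Cre plus by 1.10 (SE 0.38, 95% interval 0.32 to 1.88), with no overlap between the genotypes. It did not pass the adjustment (limma unadjusted p = 0.00779, adjusted p = 0.102). The difference was 1.20 within PHX2, which held only 1 Cre minus liver at 40 h, and 1.01 within PHX3. Cidec was higher by 2.27 (SE 0.98, interval 0.26 to 4.29, adjusted p = 0.217), with 3 of 5 Cre plus livers above every Cre minus liver. Apoa4 differed by 0.43 (adjusted p = 0.592). None of the 3 members was called at 40 h, where 5.35% of all probe sets were. The Plin2 difference was called in 1 of the 32 fits that left out 1 liver, without Cre minus 30 h C (adjusted p = 0.0482, difference 1.12), and in none of the 14 other settings (adjusted p from 0.0915 to 0.670).

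At the earlier times none of the members was called between genotypes either. At 0 h the differences were -0.20 for Cidec, 0.04 for Plin2 and 0.11 for Apoa4, where 0.0649% of all probe sets were called. At 20 h, where 0.292% were called, they were -0.11 for Cidec, 0.11 for Plin2 and -0.74 for Apoa4 (SE 0.36, unadjusted p = 0.0485, adjusted p = 0.999), and for Apoa4 all 4 Cre plus livers lay under all 4 Cre minus livers. Without Cre plus 20 h D the Apoa4 difference was -0.38. The small mean differences of Cidec and Plin2 at 20 h hid opposite ones by batch: -2.71 in PHX2 and 2.49 in PHX3 for Cidec, and -0.98 and 1.19 for Plin2. At 30 h, where 0.281% were called, the differences were 1.84 for Cidec (adjusted p = 0.561), 0.72 for Plin2 (adjusted p = 0.555) and -0.33 for Apoa4 (adjusted p = 0.807). Without Cre minus 30 h C those of Cidec and Plin2 were 3.0 and 1.15 (adjusted p = 0.124 and 0.139), and without Cre minus 30 h D 1.06 and 0.43 (adjusted p = 0.910 and 0.907). With array weights both were called, at 3.23 and 1.32 (adjusted p = 0.00228 and 0.00224), where over the 14 settings the adjusted p ran up to 0.784 and 0.768.

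Whether the time course differed between genotypes was tested as an interaction. The genotype difference at 40 h minus that at 0 h was 2.47 for Cidec (adjusted p = 0.944), 1.06 for Plin2 (adjusted p = 0.898) and 0.32 for Apoa4, where 0.584% of all probe sets were called and none of the members. For the step from 20 h to 40 h it was 2.38 for Cidec (adjusted p = 0.755), 0.99 for Plin2 (adjusted p = 0.718) and 1.18 for Apoa4 (unadjusted p = 0.0254, adjusted p = 0.528), against 0.768% called. At 20 h limma called 0 members and 0% of all probe sets (132 at an unadjusted p under 0.05), and at 30 h 0 members against 0.0108%, with differences of 0.09 and 2.04 for Cidec. Array weights called the 30 h interaction for Cidec (3.51, adjusted p = 0.0119) and Plin2 (1.26, adjusted p = 0.0244), with adjusted p up to 0.999 over the 14 settings. The return of Plin2 in Cre minus and its persistence in Cre plus are thus values within each genotype, and a difference between the genotypes in the 40 h interactions did not pass the test.

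Pparg read low in all groups, with means from 3.83 ± 0.22 in Cre minus at 40 h to 4.46 ± 0.34 in Cre minus at 20 h (SD, n = 4 each). In Cre minus at 20 h livers A to D read 4.73, 3.96, 4.54 and 4.59, and at 40 h 3.77, 3.72, 3.68 and 4.15. The highest Pparg values outside these were 4.74 in Cre minus 30 h C and 4.68 in Cre plus 40 h D, livers in which Cidec was also high, whereas Cre minus 20 h A, at 4.73, had the lowest Cidec of its group. The 2 Cd36 probe sets stayed between 3.77 and 4.22 and between 2.87 and 3.43, and the group means covered 3.93 to 4.07 for the first and 3.09 to 3.32 for the second. At these levels a change in either gene may be hidden under the background of the array, so no statement on the mRNA of Pparg or Cd36 is made. Pparg spans chr6:115360879-115490404 and Cd36 chr5:17781690-17888959.

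The variation between livers of 1 group was the other feature of Cidec. After group and batch were fitted, its residual SD was 1.55 on the log2 scale, the highest of the 9249 probe sets tested, whose median was 0.175. Plin2, at 0.602, ranked 214 and Apoa4, at 0.539, ranked 306. Cyp4a14 (1.53), Pdk4 (1.45) and Upp2 (1.45), named here after their values were seen, came next after Cidec. Cyp4a14 hydroxylates fatty acids and PDK4 restrains the entry of pyruvate into the citric acid cycle. Among livers of 1 group, Cidec spanned 5.63 on the log2 scale in Cre minus at 30 h and 4.71 in Cre plus at 40 h, with the lowest liver of each under its array's 30th percentile. The narrow span of 0.68 in Cre minus at 40 h lay near the dim end of the arrays, which can hide a spread.

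Cidec and Plin2 varied together, and the livers high in the first were the livers high in the second. With group and batch means removed, Pearson's r over the 32 livers was 0.957 and Spearman's rho 0.883. It was 0.934 without the 2 livers farthest from the median Cidec, 0.95 in the 15 PHX2 livers and 0.965 in the 17 PHX3 livers. Both genes put the livers of a group in the same full order in 2 of the 8 groups, Cre plus at 40 h (B, D, E, A and C) and Cre minus at 20 h (D, C, B and A). They shared the highest liver in 3 groups and the lowest in 5, and neither in the 0 h groups, where both genes varied little. These values come from the same arrays and share any effect of the array or of the liver's RNA. The correlation of Cidec with Apoa4 was 0.480 over the 32 livers and 0.787 over the 24 taken after surgery, and that of Plin2 with Apoa4 was 0.512 and 0.830. Cidec and Plin2 had 0.980 over those 24.

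**Figure D3:**
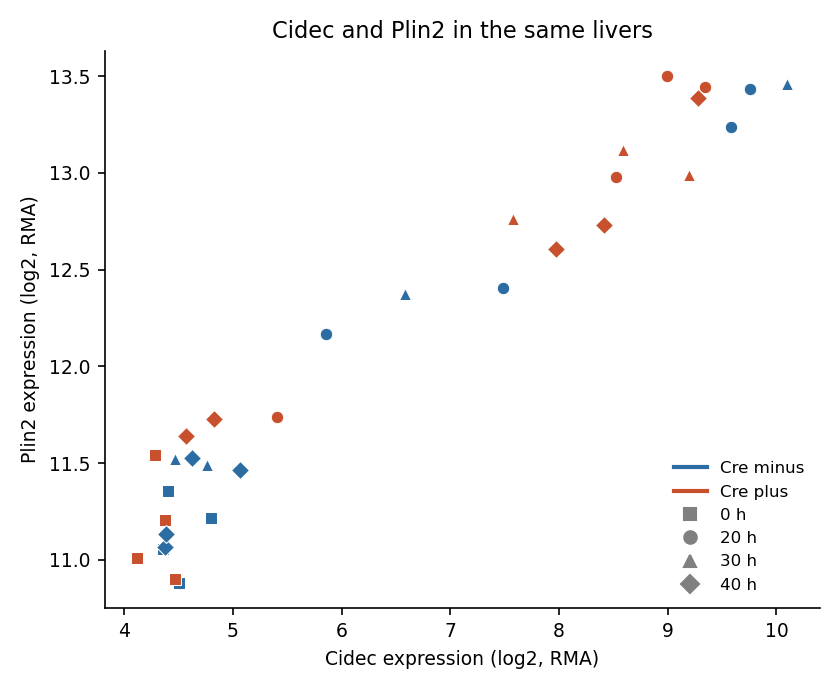
Log2 expression of Plin2 (y axis) against Cidec (x axis) in the 32 livers, with colour for genotype and symbol shape for hours after partial hepatectomy. Livers at 0 h and Cre minus livers at 40 h gather at the lower left. Cre minus 30 h A and D and Cre plus 40 h A and C lie near them. The other livers run up a band along which both genotypes and all later times mix (over all livers Pearson's r 0.973, n = 32, group means not removed).

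The genes most like each member were found over the 32 arrays with batch means removed, among 6786 genes. For Cidec they were Plin2 (r 0.978), Slc3a2 (0.945) and Rbpms (0.943), and for Plin2 they were Cidec, Slc3a2 (0.943) and Tbrg1 (0.926). SLC3A2 is the heavy chain shared by several amino acid transporters, and RBPMS is an RNA-binding protein. For Apoa4 they were Eci2 (0.889), an enzyme of unsaturated fatty acid oxidation, Alas1 (0.888), the first enzyme of heme synthesis, and Mt2 (0.844), a metallothionein. Slc3a2 rose in Cre plus at 20 h by 1.32 (adjusted p = 0.0117) and Rbpms in Cre minus at 20 h by 1.60 (adjusted p = 0.0193). Eci2, Alas1 and Mt2 rose at all 3 later times in both genotypes, as Apoa4 did. All of these genes were picked for their likeness over arrays of all times. A shared rise over 0 h was thus part of the choice and is not a separate result.

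Other genes of lipid droplets and lipolysis had a median difference at 20 h near that of all probe sets. Of 28 genes listed 18 were measured and 17 tested. Of the 15 besides Cidec and Plin2, 0 were called higher and 1 lower in Cre minus at 20 h, beside 7.37% of all probe sets. In Cre plus 0 were called higher and 3 lower, beside 9.07%. Cideb, a liver relative of Cidec that acts in lipoprotein lipidation, fell by 0.68 in Cre minus (SE 0.19, adjusted p = 0.0281) and by 0.82 in Cre plus (SE 0.19, adjusted p = 0.00823). Lipe, hormone-sensitive lipase, and Lipa, the lysosomal acid lipase, fell in Cre plus by 0.42 and 0.87. The 15 had a median difference at 20 h of -0.07 (Cre minus) and -0.06 (Cre plus), beside -0.03 and -0.02 over all probe sets tested. Single genes of the list, named here after their values were seen, ran apart. With group and batch removed, the correlation with Cidec was 0.618 for Plin4 and 0.630 for Cidea. It was -0.748 for Cideb and -0.602 for Bscl2. Plin4 read 4.79, 4.92, 6.27 and 6.64 in Cre minus livers A to D at 20 h, and 4.87, 4.90, 4.70 and 4.87 at 0 h. In Cre minus 0 of the 15 were called at 30 h or 40 h, beside 3.14% and 4.77% of all probe sets. In Cre plus 1 was called higher and 4 lower at 30 h, beside 9.89%. At 40 h the counts in Cre plus were 1 and 2, beside 9.66%.

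Pnpla2, which encodes the lipase ATGL that starts triglyceride breakdown at the droplet, was the 1 gene of that list called between genotypes. At 40 h this was 1 of the 17 tested, near the 5.35% of all probe sets called, so the count says nothing about the list. At 40 h it read 10.18, 11.16, 9.92 and 10.73 in Cre plus livers A to D, with liver E between C and A, and 9.23, 9.12, 9.15 and 9.53 in Cre minus livers A to D. The groups did not overlap, and Pnpla2 was higher in Cre plus by 1.09 (SE 0.32, adjusted p = 0.0450). The alternative settings were run for the tested members and not for Pnpla2. Over all 32 livers its residual correlation with Cidec, group and batch removed, was 0.817. At 0 h all 8 livers lay between 9.22 and 9.53. At 20 h Cre minus livers A to D read 9.41, 9.46, 10.95 and 11.06, and Cre plus livers 10.55, 10.52, 10.42 and 9.78. Every 20 h liver lay above the 0 h livers of its genotype, although Pnpla2 was not called higher at 20 h in either.

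**Figure D4:**
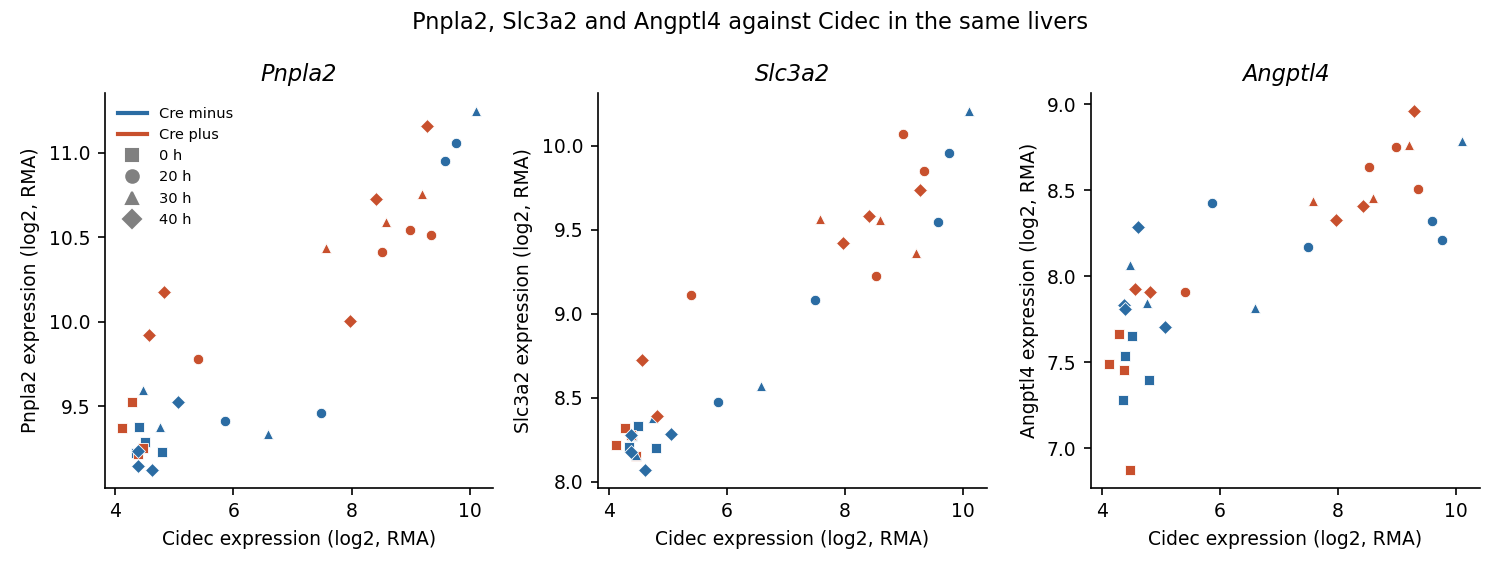
Log2 expression of Pnpla2, Slc3a2 and Angptl4 (y axes, each with its own range) against Cidec (x axes) in the 32 livers, with colour for genotype and symbol shape for hours after partial hepatectomy. All 3 are high in the livers with high Cidec, and for Pnpla2 3 Cre minus livers with Cidec from 5.86 to 7.49 stay near the 0 h level.

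For triglyceride synthesis, 12 of 21 listed genes were measured and tested. Called in Cre plus were 1 of the 12 at 20 h, 3 at 30 h and 3 at 40 h, beside 9.07%, 9.89% and 9.66% of all probe sets, and in Cre minus 1, 1 and 2, beside 7.37%, 3.14% and 4.77%. At 20 h Acsl5, an acyl-CoA synthetase, fell by 0.65 in Cre minus (adjusted p = 0.0396). Lpin1, which encodes the phosphatidate phosphatase that makes diacylglycerol and also acts in gene control, rose by 2.16 in Cre plus (SE 0.53, adjusted p = 0.0119). Its Cre plus livers A to D read 10.14, 10.25, 9.80 and 8.38 at 20 h, against 7.33 to 7.67 at 0 h, and its Cre minus livers 7.64, 6.64, 8.57 and 9.28. At 30 h Dgat1, which makes triglyceride from diacylglycerol, rose in Cre plus by 0.87 (adjusted p = 0.00234), with Lpin1 by 2.01 and Agpat3 by 0.54. At 40 h Lpin2 and Agpat3 rose in Cre plus by 1.01 and 0.50 and Acsl5 fell by 0.70.

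In the list for fatty acid uptake and binding, 17 of 22 genes were measured and 15 tested, none of them Cd36. At 20 h in Cre minus 2 rose, Fabp7 by 1.02 and Angptl4 by 0.81, and 1 fell, the bile acid and fatty acid ligase Slc27a5 by 0.52. Of all probe sets 7.37% were called there. In Cre plus, where 9.07% of all probe sets were called, 1 rose, Angptl4, by 1.08 (SE 0.22, adjusted p = 0.00374), and it was still higher at 40 h by 0.93. ANGPTL4 is a secreted inhibitor of lipoprotein lipase. Fabp7, a fatty acid binding protein, was lower in Cre plus than in Cre minus at 20 h by 1.59 on the log2 scale (the difference was -1.59, adjusted p = 6.64e-04). At 40 h Fabp1, the main fatty acid binding protein of hepatocytes, and Dbi were lower in Cre plus (differences of -1.03 and -0.38). These were 2 of the 15 tested, beside 5.35% of all probe sets called.

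Apolipoproteins other than Apoa4 were called in both directions. Of 22 listed genes 19 were measured and tested, and of the 18 besides Apoa4 1 rose and 3 fell at 20 h in Cre minus, beside 7.37% of all probe sets, and 0 rose and 2 fell in Cre plus, beside 9.07%. At 20 h in Cre minus Apoc2, a cofactor of lipoprotein lipase, rose by 0.67 (adjusted p = 0.0419), and Apom, Apoh and Apoc1 fell by 0.52, 0.42 and 0.23. In Cre plus Apom and Apoc4 fell by 0.46 and 0.36. At 40 h in Cre plus Apoc2 rose by 0.68, and Apoh, Apoa2 and Apoc1 fell by 0.45, 0.38 and 0.30. The median difference of the 18 at 20 h was -0.01 in both genotypes.

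Among PPARG, its partners and other regulators, 25 of 33 genes were measured and 23 tested. At 20 h Cebpd and Cebpb, transcription factors of the acute phase and of early fat cell formation, rose in both genotypes, by 2.03 and 1.20 in Cre minus and by 2.27 and 1.46 in Cre plus. Cebpa, which marks mature hepatocytes and fat cells, fell by 1.27 and 1.26. Srebf1, which drives fatty acid synthesis, fell by 2.08 in Cre minus (SE 0.55, adjusted p = 0.0213), and rose again by 2.14 from 20 h to 40 h. In Cre plus Srebf1 was at a difference from 0 h of -1.56 at 20 h (adjusted p = 0.0758), which did not pass, and of -1.74 at 40 h (adjusted p = 0.0359). Known PPAR targets outside the 5 members had 20 of 28 measured and 19 tested. At 20 h in Cre minus 4 rose and 0 fell, beside 7.37% of all probe sets called. These were Cyp4a10, a fatty acid hydroxylase, by 3.55, Ehhadh, a peroxisomal oxidation enzyme, by 1.75, Angptl4 by 0.81 and Acadl, a mitochondrial dehydrogenase, by 0.80. In Cre plus 2 of the 19 rose, Angptl4 and Acadl, and 0 fell, near the 9.07% of all probe sets called. At 30 h and 40 h 0 of the 19 were called in Cre minus, beside 3.14% and 4.77%. In Cre plus 1 was called at each of these times, beside 9.89% and 9.66%. At 20 h the 19 had a median difference of 0.64 (Cre minus) and 0.43 (Cre plus), beside -0.03 and -0.02 over all probe sets. Their medians were 0.66 and 0.35 at 30 h, and 0.12 and 0.33 at 40 h.

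Markers of other cell types were set beside the members. Of 12 adipocyte markers 9 were measured and 8 tested, and their mean in a liver ran from 6.48 to 6.58 in Cre minus at 0 h and from 5.79 to 6.56 in Cre plus at 40 h. With group and batch removed, that mean correlated with Cidec at 0.660 over 32 livers. The defining marker Adipoq stayed at group means of 3.20 to 3.45, too dim to be tested. Part of the list, Cidea and Lipe among it, also acts in hepatocyte droplets. The share of the adipocyte markers in the Cidec values was not tested. The same correlation was 0.467 for endothelial markers, 0.326 for enterocyte markers, 0.264 for platelet markers, -0.0358 for macrophage markers, -0.0773 for hepatocyte markers and -0.176 for erythroid markers. These means hold single markers that ran apart. Among hepatocyte markers Cps1 was at -0.855 and Fgb at 0.240, and among macrophage markers Cd14 was at 0.865 and Lyz2 at -0.566. Among endothelial markers Lyve1 was at 0.705 and Tek at -0.654. A weak correlation of a mean does not show that Cidec was unrelated to the single markers.

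Of 12 macrophage markers measured, 0, 5, 2 and 6 were called lower in Cre plus at 0, 20, 30 and 40 h. Of all probe sets 0.0649%, 0.292%, 0.281% and 5.35% were called at these times. Their mean in a liver ran from 7.26 to 7.85 in Cre minus and from 6.73 to 7.20 in Cre plus at 40 h, with no overlap at 0, 20 or 40 h, and at 30 h it overlapped, from 7.21 to 7.76 and from 6.85 to 7.32. Of 6 erythroid markers, 2 hemoglobin genes were lower in Cre plus at 20 h and at 40 h. The part of these cells in the genotype differences of Cidec, Plin2 and Pnpla2 was not tested. As a sign of RNA quality, the 3′ minus 5′ difference of the Actb control probe sets correlated with Cidec at -0.0271 and that of Gapdh at 0.347.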

How the data were processed

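Total liver RNA from 32 samples was hybridised to Affymetrix arrays, and the deposited values are log2 expression. The submitters' processing notes name RMA as the authors' method, with its version and the joint or separate treatment of the batches not given in the sources used here. Base 2 was taken from the range of the values, 2.30 to 14.12. Of 12422 probe sets without the 66 controls, 10833 had 1 gene, 396 several and 1193 are unnamed here. Tests over 9249 probe sets used limma (version 3.58.1, R 4.3.3) through lmFit and eBayes, 2-sided, in a model of 8 groups plus batch, and p-values were adjusted by Benjamini-Hochberg within each of 16 comparisons at 0.05. The fit was tested on simulated data. The number of arrays limits the precision.

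All probe sets of the 5 members are named, the 3 genes most like each member tested, and up to 3 genes per list and direction with the largest called differences; exceptions are stated. The members, the lists (229 entries) and the tests were chosen with earlier results of these data known. Alternatives changed the batch term, arrays, normalisation, filter, weights, eBayes settings and replicate block, and left out each liver in turn. The replicate letters did not pair the samples: of 15 pairs of arrays with the same letter and time across the genotypes, 4 had correlated deviations over 0.1 (range -0.416 to 0.333).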

Additional observations from a re-analysis of the deposited data

Results flagged for a closer look

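The difference between genotypes at 20 h was not the same in both batches for Cidec and Plin2. This was noticed in the within-batch values and then tested, as the difference between the batches in the genotype difference, with 2 livers of each genotype in each batch. For Cidec, PHX3 minus PHX2 was 5.20 on the log2 scale (SE 1.97, unadjusted p = 0.0162, limma adjusted p = 0.272). For Plin2 it was 2.16 (SE 0.76, unadjusted p = 0.0102, adjusted p = 0.218), and for Apoa4 1.13 (adjusted p = 0.551). In PHX2 both Cre plus livers lay under both Cre minus livers, for Cidec and for Plin2, and in PHX3 both lay above. Of 9249 probe sets 25 were called in this test (0.27%), and neither Cidec nor Plin2 was among them. The cause was not tested.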

How the results depend on the processing

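Each of the 14 differences called for Cidec, Plin2 and Apoa4 kept its sign under every alternative run. The calls of other genes named in the report were not followed through the alternatives, and the counts below are of the members. The 0 calls between genotypes became 2 with array weights, which called Cidec and Plin2 at 30 h (3.23 and 1.32, adjusted p = 0.00228 and 0.00224), and were 0 to 1 without 1 liver (1 without Cre minus 30 h C). Calls against 0 h in Cre minus numbered 5, with 1 in PHX2 alone, 3 in PHX3 alone and 3 to 5 without 1 liver (3 without Cre minus 20 h D). In Cre plus they numbered 8, with 0 in PHX2 alone, 4 in PHX3 alone and 5 to 9 without 1 liver (5 without Cre plus 0 h C or D). From 20 h to 40 h the 1 call became 2 without a batch term, with batch as a random block, without the 3 arrays under 0.95 or with quantile normalisation, 3 with only the groups compared, 4 with array weights (Cidec and Plin2 in each genotype), 0 in either batch alone, and 0 to 2 without 1 liver. Interaction calls went from 0 to 2 with array weights, and were 0 to 0 without 1 liver. The replicate block ended the calls of Cidec in Cre plus at 30 h (3.69) and Plin2 in Cre plus at 40 h (1.28) and changed no other call. Fits in 1 batch hold fewer arrays; for the other settings the cause was not tested.

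Cidec at 0 h, Pparg and Cd36 lie near the dim end of the arrays, which limits their folds. Groups of 3 to 5 livers with a Cidec SD above 2 cannot show small differences.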
